A study of Mus with 18 samples.

Results

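The genes described here are the 8 of the prostaglandin pathway that were chosen by name from all 55416 gene identifiers counted: the phospholipase Pla2g4a (ENSMUSG00000056220), the cyclooxygenases Ptgs1 (ENSMUSG00000047250) and Ptgs2 (ENSMUSG00000032487), the terminal synthases Ptges (ENSMUSG00000050737) and Ptgds (ENSMUSG00000015090), the prostaglandin E receptors Ptger2 (ENSMUSG00000037759) and Ptger4 (ENSMUSG00000039942), and the degrading enzyme Hpgd (ENSMUSG00000031613). They were measured by RNA-seq in lens epithelial cells (LECs), the cell layer that stays on the lens capsule when the fibre cells of the lens are removed in a mouse model of cataract surgery. Capsules were collected either at the time of surgery (0 h) or 6 h post cataract surgery (PCS), from mice of 3 genotypes, which gave 6 groups of 3 libraries and 18 libraries in all.

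All mice were 3 to 5 months old and are labelled C57BL/6, and each library pooled 5 capsules. The study's methods, however, give the Egr1KO stock a mixed strain name. They give the cre transgene an FVB/N origin with later backcrossing to C57BL/6. A part of strain in the genotype differences was not tested. WT mice were labelled wildtype. Egr1KO mice carried a systemic null allele of Egr1, in which a neo cassette leaves a truncated reading frame, so every cell of the animal lacked the intact gene before as well as after surgery. FosBcKO mice carried a floxed FosB allele and the MLR10 cre transgene, whose modified alpha-A crystallin promoter limits the deletion to the lens. Each mouse had its second eye operated 6 h after its first, and both capsules were harvested at that point. The pools of the 2 times thus share their animals, but the labels do not say which pools match. The names that would let the Egr1 and FosB counts check the genotype labels, or LEC markers check the tissue label, were not paired with the gene identifiers, and these checks were not done here.

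Prostaglandins are lipid signals that cells make on demand from arachidonic acid. Cytosolic phospholipase A2 (Pla2g4a) frees arachidonic acid from membranes, a cyclooxygenase turns it into an unstable intermediate, and a terminal synthase turns this intermediate into one final prostaglandin. In the eye as elsewhere, they are known for their part in inflammation after injury, and cyclooxygenase inhibitors are given around cataract surgery for this reason.

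The libraries held 9609295 to 13871592 counts assigned to genes, and 19121 to 25999 genes had at least 1 count. Levels are given as CPM, the share of a library's gene-assigned counts scaled to a total of 1000000, so that a count of 0 still allows up to 3 counts, or 0.216 to 0.312 CPM depending on the library. This limit covers counting error only, since copies made by PCR could not be told from separate molecules. Counts that fell outside genes made up 8.034 to 20.89% of the total at 0 h and 20.03 to 30.47% at 6 h PCS. Within each genotype these ranges did not overlap, and their part in the changes with time was not tested. In bulk tissue, fewer cells of a type and less RNA per cell cannot be told apart.

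In WT LECs, 2 of the 6 genes that passed the filter on low counts were higher at 6 h PCS by the rule used throughout, which asked for over 2-fold change and a false discovery rate (FDR) no greater than 0.05. These were Ptgs2, 27.2-fold higher, and Ptger4, 19.2-fold higher. In each genotype the 0 h libraries alone held too few Ptger4 counts to pass the filter. Ptger4 thus entered these tests only through the 6 h libraries, where it was high. Of all 15440 genes tested in WT, 17.1% passed in either direction and 13.5% were higher. In Egr1KO LECs, 1 of 5 tested genes of the pathway (Ptgs2, 11.5-fold higher) passed, where 12% of all genes did and 9.28% were higher. FosBcKO LECs had 3 of 7 tested genes pass, all higher: Ptgs2 at 81.4-fold, Ptger4 at 26.9-fold and Ptgs1 at 2.90-fold. The FosBcKO libraries at 0 h alone also just missed the filter for Ptgs2, with 22, 17 and 9 counts. In FosBcKO, Ptgs2 thus entered the test with the help of the 6 h libraries, where it was high. The share of all genes in FosBcKO was 13.1%, with 11.2% higher. The count in Egr1KO was 1 without its replicate 1 at 6 h (3033 of all 15469 genes passed), and the count in FosBcKO was 3 without its replicate 3 at 6 h (2862 of 16245), the libraries that stood nearest to 0 h overall. Other libraries did move the counts. Without replicate 3 at 0 h none passed in Egr1KO (534 of 15696 genes), and without replicate 1 at 0 h 2 did (752 of 15577). In FosBcKO 1 passed without replicate 1 (1510 of 16522 genes), replicate 2 (1743 of 16405) or replicate 3 (935 of 16577) at 0 h, or without replicate 1 at 6 h (978 of 15879). None of the 8 passed in the lower direction in any genotype, where 3.65% of all genes did in WT, 2.69% in Egr1KO and 1.90% in FosBcKO.

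**Figure D1:**
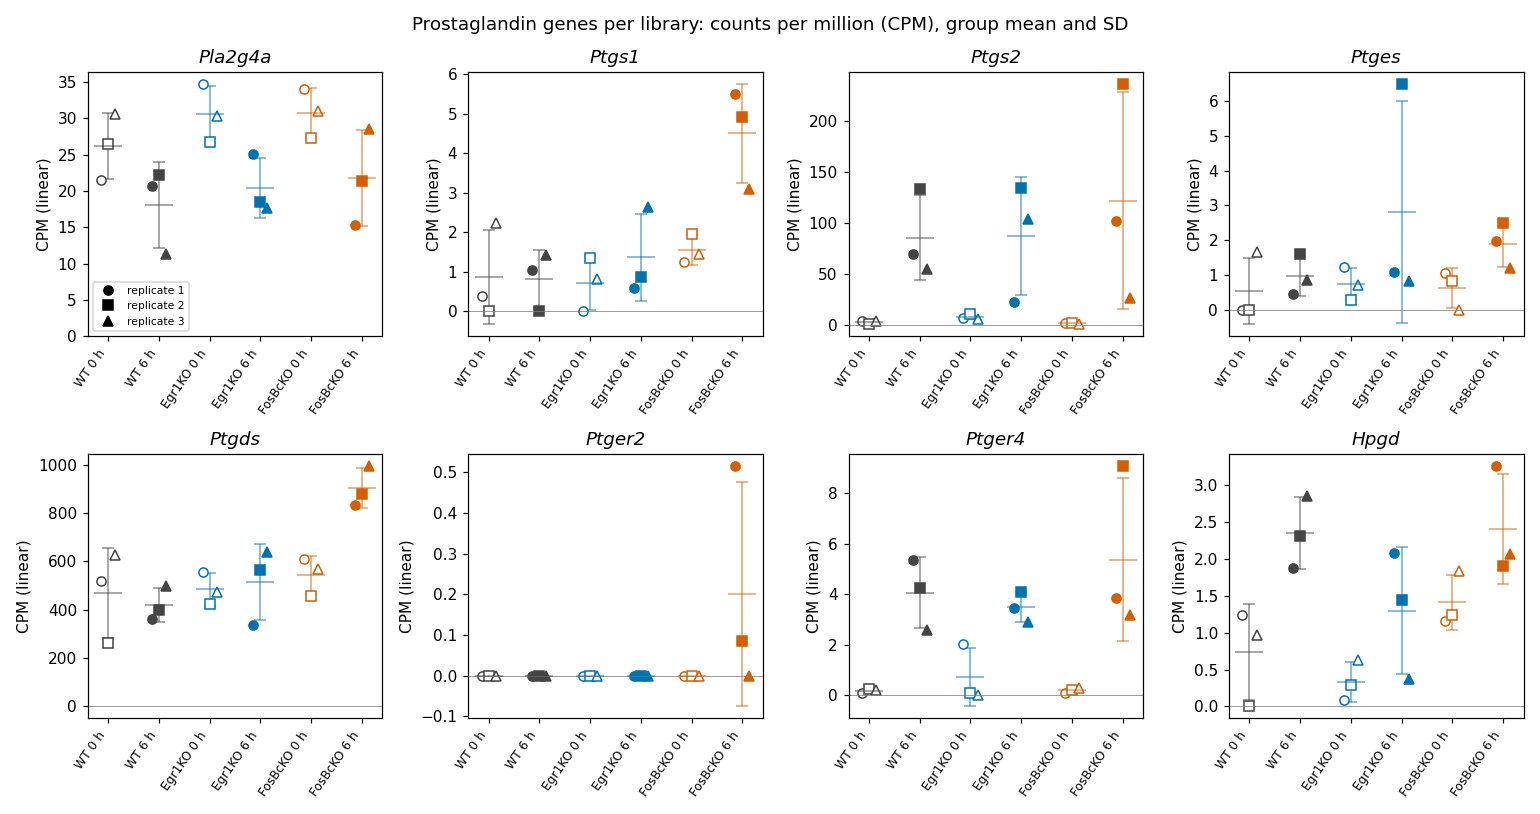
Level of each of the 8 genes in CPM (vertical axes, each on its own scale) in the 18 libraries, grouped along the horizontal axis by genotype and time. Points are libraries, and bars give the mean and SD of 3. Ptgs2 and Ptger4 sit higher in all 9 libraries at 6 h PCS than in any at 0 h, while Ptgs1 and Ptgds stand apart in the 3 FosBcKO libraries at 6 h.

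Pla2g4a, which supplies the arachidonic acid, was measured at 21.5, 26.5 and 30.6 CPM in the WT libraries at 0 h and at 20.7, 22.2 and 11.3 CPM at 6 h PCS. The WT groups overlapped. In Egr1KO it was 34.7, 26.8 and 30.3 CPM at 0 h against 25.1, 18.5 and 17.7 CPM at 6 h, and here each 6 h library lay below each 0 h library, as 25.2% of all genes tested in Egr1KO also did. The FosBcKO libraries held 34.0, 27.3 and 31.0 CPM at 0 h and 15.4, 21.3 and 28.5 CPM at 6 h, with overlap. The fitted log2 changes were -0.62 ± 0.30 (SE) in WT, -0.52 ± 0.22 in Egr1KO and -0.50 ± 0.24 in FosBcKO. With FDRs of 0.157, 0.122 and 0.161 in edgeR's quasi-likelihood F-test, none passed the threshold. Without replicate 1 at 6 h the Pla2g4a change in Egr1KO was -0.75 (FDR = 0.0195), and without replicate 3 at 6 h that in FosBcKO was -0.79 (FDR = 0.034), both past the FDR threshold but under 2-fold.

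Ptgs2 encodes cyclooxygenase-2, the inducible enzyme of the pair and an early response gene in many cell types. Its WT level was 4.31, 1.16 and 3.50 CPM at 0 h and 69.3, 133 and 54.5 CPM at 6 h PCS. Egr1KO libraries went from 7.02, 10.4 and 5.93 CPM to 22.5, 134.7 and 104.2 CPM. In FosBcKO the 0 h libraries held 1.96, 1.76 and 0.873 CPM and the 6 h libraries 102, 236 and 26.4 CPM. The lowest library at 6 h was thus higher than the highest at 0 h across all genotypes, a pattern that 4.85% of the 17469 genes tested over all libraries shared and that Ptger4 shared as well.

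The log2 change of Ptgs2 was 4.77 ± 0.55 (SE, FDR = 0.00189) in WT, 3.52 ± 0.60 (FDR = 0.00917) in Egr1KO and 6.35 ± 1.09 (FDR = 0.0183) in FosBcKO. Only the WT call held in every alternative run. In Egr1KO the FDR for Ptgs2 was 0.0501 without replicate 3 at 0 h and 0.0664 without the filter on low counts. The FosBcKO call for Ptgs2 was lost without replicate 1 (FDR = 0.0622), replicate 2 (0.065) or replicate 3 (0.0855) at 0 h, without replicate 1 at 6 h (0.0812) and without the filter (0.0521). Without FosBcKO replicate 2 at 6 h, the highest library, its log2 change was 5.27 and still passed (FDR = 0.00885).

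**Figure D2:**
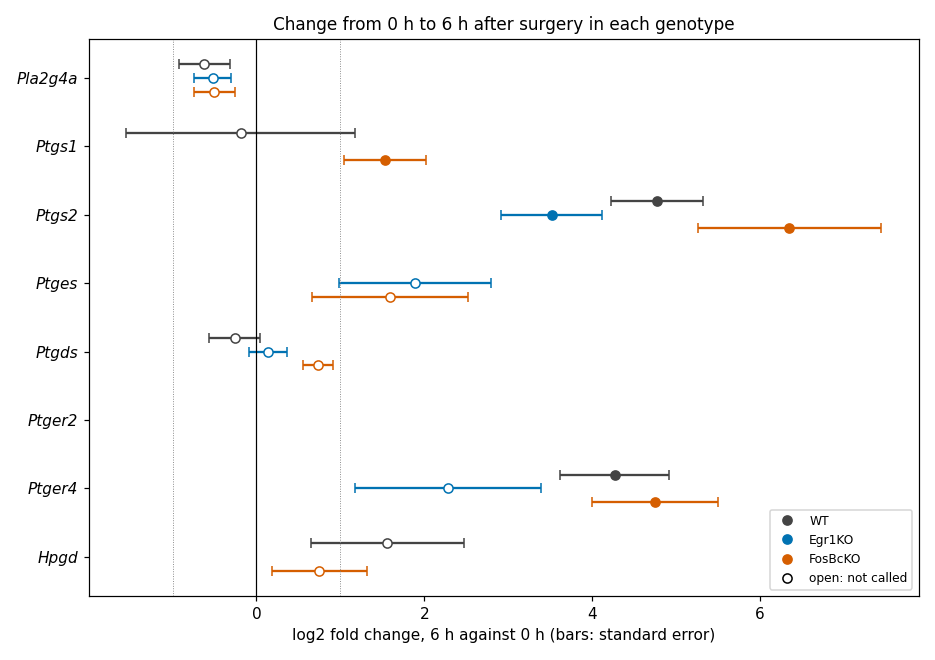
Fitted log2 change at 6 h PCS against 0 h (horizontal axis) for each tested gene of the pathway in WT, Egr1KO and FosBcKO, with bars of 1 SE. Filled points passed an FDR of 0.05 with more than 2-fold change. Ptgs2 passed in all 3 genotypes and Ptger4 in WT and FosBcKO, and the Pla2g4a points lie between -0.62 and -0.50.

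Among the 6 h groups the mean Ptgs2 level was 85.7 ± 41.9 CPM in WT, 87.1 ± 58.0 in Egr1KO and 122 ± 106 in FosBcKO (SD, n = 3 each). The spread within a group exceeded the differences between the means: the highest library was 2.44 times the lowest in WT, 6.00 times in Egr1KO and 8.95 times in FosBcKO. At 0 h the order of the means was FosBcKO at 1.53 ± 0.58 CPM, WT at 2.99 ± 1.64 and Egr1KO at 7.77 ± 2.31, and FosBcKO and WT overlapped.

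The Ptgs2 level at 6 h PCS was lowest in Egr1KO replicate 1 (22.5 CPM) and next lowest in FosBcKO replicate 3 (26.4 CPM). These libraries were also the lowest of the 9 at 6 h on the first principal component of log2 CPM over all genes, which carried 43.6% of the variance, with scores of -4.70 and 23.6 against 54.1 to 116 in the other 7 libraries. The 0 h libraries scored -90.3 to -39.4. Without Egr1KO replicate 1 at 6 h the Ptgs2 change in Egr1KO was 3.95 on the log2 scale (FDR = 6.43e-06), and without FosBcKO replicate 3 at 6 h it was 6.76 in FosBcKO (FDR = 0.000729). What sets the position of these libraries was not tested.

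**Figure D3:**
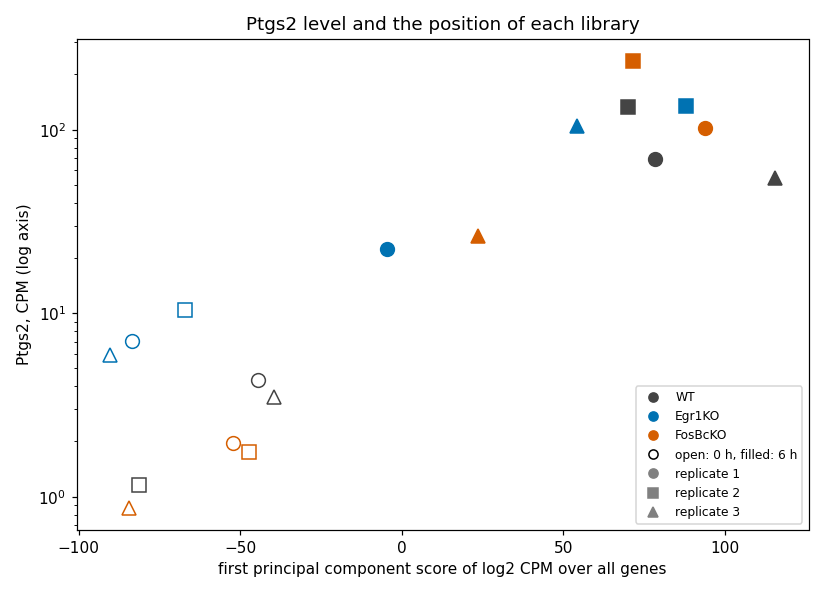
Ptgs2 level in CPM (vertical log axis) against the score on the first principal component of log2 CPM over all genes (horizontal axis, no unit) for the 18 libraries. Open symbols are 0 h, filled symbols 6 h PCS, colours give the genotype and shapes the replicate. Egr1KO replicate 1 and FosBcKO replicate 3 at 6 h lie between the 0 h libraries and the other 7 libraries at 6 h on both axes.

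Ptgs1 encodes cyclooxygenase-1, the form most tissues make without a stimulus. It was found at 0.383, 0 and 2.24 CPM in WT at 0 h and at 1.04, 0 and 1.43 CPM in WT at 6 h PCS. Egr1KO libraries held 0, 1.34 and 0.833 CPM at 0 h and 0.594, 0.865 and 2.64 CPM at 6 h, too few counts for this contrast to pass the filter. In FosBcKO the levels were 1.25, 1.97 and 1.45 CPM at 0 h and 5.50, 4.93 and 3.10 CPM at 6 h, from 64, 57 and 36 counts. All 3 FosBcKO libraries at 6 h lay above the other 15 libraries, a pattern that Ptgds shared and that 2.71% of the 17469 genes showed. The log2 change of Ptgs1 in WT was -0.19 ± 1.36 (SE, FDR = 0.932), an error too wide to give a direction.

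The change of Ptgs1 with time in FosBcKO was 1.53 ± 0.49 on the log2 scale (SE, FDR = 0.0465). It lay close to the threshold: the FDR rose to 0.143 without replicate 1, 0.0673 without replicate 2 and 0.119 without replicate 3 at 0 h, to 0.149 without replicate 1 and 0.143 without replicate 2 at 6 h, to 0.0826 without the filter, and to 0.347 in a fit of all 18 libraries.

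Ptges, the synthase that makes prostaglandin E2 downstream of cyclooxygenase-2, stayed at few counts. WT libraries held 0, 0 and 1.65 CPM at 0 h and 0.471, 1.61 and 0.858 CPM at 6 h PCS, and the gene did not pass the filter there. Egr1KO libraries held 1.22, 0.288 and 0.729 CPM at 0 h and 1.09, 6.49 and 0.848 CPM at 6 h, where a single library, replicate 2, held 90 of the 110 counts. The FosBcKO levels were 1.07, 0.829 and 0 CPM at 0 h and 1.98, 2.51 and 1.20 CPM at 6 h. These FosBcKO groups did not overlap, which was so in the same direction for 22.8% of the genes tested, and the log2 change of Ptges of 1.59 ± 0.93 (SE) had an FDR of 0.239. The FosBcKO libraries at 0 h alone held too few Ptges counts (12, 8 and 0) to pass the filter. In FosBcKO, Ptges thus entered the test through the 6 h libraries, where it was higher. In Egr1KO the log2 change was 1.89 ± 0.91 (FDR = 0.168). In the RefSeq annotation, 2 other gene models overlap Ptges, and how the counting treated strand is not given in the sources used here, so its counts could include reads from these neighbours.

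Ptgds encodes the lipocalin-type prostaglandin D synthase, which also carries small lipophilic molecules and is found in the fluids of the brain and eye. It had 2937 to 11556 counts in every library. The WT libraries held 517, 261 and 625 CPM at 0 h and 361, 397 and 500 CPM at 6 h PCS, with overlap. In Egr1KO the levels were 554, 422 and 474 CPM at 0 h and 337, 566 and 639 CPM at 6 h, again with overlap. FosBcKO libraries went from 610, 456 and 567 CPM to 834, 880 and 993 CPM, and these groups did not overlap, as was so in this direction for 22.8% of the genes tested in FosBcKO.

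The change of Ptgds with time was -0.26 ± 0.30 on the log2 scale in WT (SE, FDR = 0.539), 0.14 ± 0.23 in Egr1KO (FDR = 0.688) and 0.73 ± 0.18 in FosBcKO (FDR = 0.0185). The FosBcKO change passed the FDR threshold but, at 1.66-fold, not the fold minimum. Its FDR was 0.0576, 0.107 and 0.0745 without replicate 1, 2 or 3 at 0 h, 0.0722 without replicate 2 at 6 h, and 0.0661 in the fit of all 18 libraries.

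Ptger4 encodes EP4, a receptor through which prostaglandin E2 raises cyclic AMP. In WT its counts were 1, 3 and 2 at 0 h and 57, 42 and 27 at 6 h PCS, or 0.0957, 0.267 and 0.195 CPM against 5.37, 4.23 and 2.57 CPM. FosBcKO libraries held 0.0893, 0.207 and 0.291 CPM at 0 h and 3.86, 9.07 and 3.18 CPM at 6 h. In Egr1KO the levels were 2.04, 0.0960 and 0 CPM at 0 h and 3.46, 4.11 and 2.92 CPM at 6 h, and replicate 1 held 25 of the 26 counts at 0 h. All 9 libraries at 6 h were higher than all 9 at 0 h.

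The fitted log2 change of Ptger4 was 4.27 ± 0.65 (SE, FDR = 0.00361) in WT and 4.75 ± 0.75 (FDR = 0.00445) in FosBcKO, and both calls held in every alternative run. Without FosBcKO replicate 2 at 6 h the change in FosBcKO was 4.01 (FDR = 0.0255). In Egr1KO the log2 change of 2.28 ± 1.11 did not pass (FDR = 0.173). Without Egr1KO replicate 1 at 0 h it was 5.90 and passed (FDR = 0.0262). The 0 h levels rest on so few counts that the size of these changes is known less well than their direction.

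Ptger2, which encodes the related receptor EP2, had 7 counts in all 18 libraries together. It was at 0 in 16 libraries, and 6 counts and 1 count fell in FosBcKO replicates 1 and 2 at 6 h PCS, or 0.515 and 0.0864 CPM. It passed the filter in no comparison, and the counts of 0 allow levels of up to 0.216 to 0.312 CPM.

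Hpgd encodes 15-hydroxyprostaglandin dehydrogenase, the first enzyme in the breakdown of prostaglandin E2. WT libraries held 1.25, 0 and 0.973 CPM at 0 h and 1.89, 2.32 and 2.86 CPM at 6 h PCS, without overlap, which 28.2% of the genes tested in WT shared in this direction. The WT libraries at 0 h alone held too few Hpgd counts (13, 0 and 10) to pass the filter. In WT, Hpgd thus entered the test through the 6 h libraries, where it was higher. FosBcKO libraries held 1.16, 1.24 and 1.84 CPM at 0 h and 3.26, 1.90 and 2.06 CPM at 6 h, also without overlap, where the share in FosBcKO was 22.8%. Egr1KO libraries held 0.0816, 0.288 and 0.624 CPM at 0 h and 2.08, 1.44 and 0.377 CPM at 6 h, and there the groups overlapped and Hpgd did not pass the filter. Its log2 changes of 1.56 ± 0.91 in WT (SE, FDR = 0.233) and 0.75 ± 0.57 in FosBcKO (FDR = 0.369) did not pass the threshold.

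Across the genes of the pathway that could be tested, the median log2 change with time was 0.69 in WT, 1.89 in Egr1KO and 1.53 in FosBcKO, beside medians over all genes of -0.02, 0.00 and 0.05. These medians leave out the genes with too few counts, and a gene that passed the filter only through the group where it is high had to differ, so they are a description of 6, 5 and 7 genes.

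The knockouts were compared with WT to ask whether levels differed with loss of either transcription factor at 0 h or at 6 h PCS. At 0 h, none of the 3 genes tested in Egr1KO and none of the 5 tested in FosBcKO differed from WT by edgeR's exact test, where 0.410% and 0.295% of all genes did. DESeq2 and the quasi-likelihood test also called none of these. An unadjusted p under 0.05 was found for 1 of the 3 genes in Egr1KO and 0 of the 5 in FosBcKO, beside 920 of all 14373 genes and 818 of all 14556.

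That gene was Ptgs2, which was 7.02, 10.4 and 5.93 CPM in Egr1KO and 4.31, 1.16 and 3.50 CPM in WT at 0 h, right after the fibre cells were removed. All 3 Egr1KO libraries lay above all 3 WT libraries, as they did for 7.20% of the genes tested. The difference of 1.40 ± 0.44 on the log2 scale (SE), or 2.64-fold, had an unadjusted p of 0.00392 in the exact test and an FDR of 0.24. In FosBcKO at 0 h, Ptgs2 differed from WT by -0.96 ± 0.63 on the log2 scale (FDR = 1), with overlap. The other 0 h differences ranged from 0.08 for Ptgds in Egr1KO to 0.95 ± 0.95 for Hpgd in FosBcKO. The WT libraries at 0 h alone held too few counts of Ptgs1 (4, 0 and 23) and Hpgd (13, 0 and 10) to pass the filter. Both genes thus entered the FosBcKO comparison at 0 h through the FosBcKO libraries, where their means were higher.

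At 6 h PCS, none of the 7 genes tested differed between Egr1KO and WT, where 0.736% of all genes did. None of the 7 had an unadjusted p under 0.05 in the exact test, and neither the quasi-likelihood test nor DESeq2 called any. Ptger4 differed by -0.02 ± 0.44 on the log2 scale (SE) and Ptgs2 by 0.19 ± 0.59. The widest difference was that of Ptges, 1.66 ± 0.89 (FDR = 0.585), and it rests on the counts of Egr1KO replicate 2. Without that library the Ptges difference was 0.24.

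In FosBcKO at 6 h PCS, 2 of the 7 genes tested were higher than in WT and none lower. Ptgs1 was 6.03-fold and Ptgds 2.37-fold higher. The WT libraries alone held too few counts of Ptgs1 and Ptges to pass the filter. Both thus entered this test through the FosBcKO libraries, where they were higher. Among all 16155 genes tested, 5.41% differed and 4.48% were higher in FosBcKO. The fitted log2 differences of the 7 had a median of 0.65, against 0.00 over all genes. All 7 were above 0, but those of Ptgs2, Ptger4 and Hpgd each changed sign when 1 library was left out. The share of all genes above 0 was not computed, so these values describe the 7 genes only.

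Ptgds was 834, 880 and 993 CPM in FosBcKO and 361, 397 and 500 CPM in WT at 6 h PCS, a difference of 1.25 ± 0.24 on the log2 scale (SE, FDR = 7.3e-05 in the exact test). The groups did not overlap, which was so for 9.99% of the genes tested in this direction. When 1 library at a time was left out, the FDR for Ptgds ran from 4.8e-05 to 0.017. It was 0.0299 in the quasi-likelihood test, 3.32e-07 in DESeq2 and 0.0226 in the fit of all 18 libraries. With the replicate number as a block it was 0.107, but FosBcKO and WT libraries of the same number come from different mice.

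Ptgs1 was 5.50, 4.93 and 3.10 CPM in FosBcKO and 1.04, 0 and 1.43 CPM in WT at 6 h PCS, a difference of 2.59 ± 0.83 on the log2 scale (SE, FDR = 0.0192). The call rests on few WT counts, 11, 0 and 15. It was lost without WT replicate 1 (FDR = 0.0881), without FosBcKO replicate 1 (0.0725) or without FosBcKO replicate 2 (0.145). Of the other tests, DESeq2 called Ptgs1 (FDR = 0.0187), while the quasi-likelihood test (0.179) and the fit of all 18 libraries (0.28) did not. The block did not either (0.355), but it matches numbers of different mice across genotypes.

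The other 5 genes did not pass between FosBcKO and WT at 6 h PCS. Their log2 differences were 0.65 ± 0.69 (SE) for Ptgs2, 1.07 ± 0.66 for Ptges, 0.38 ± 0.36 for Pla2g4a, 0.55 ± 0.54 for Ptger4 and 0.15 ± 0.44 for Hpgd, with FDRs of 0.463 to 0.963. The differences of Ptgs2 and Ptger4 depend on FosBcKO replicate 2, the library highest in both. Without it they were -0.39 for Ptgs2 and -0.16 for Ptger4.

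**Figure D4:**
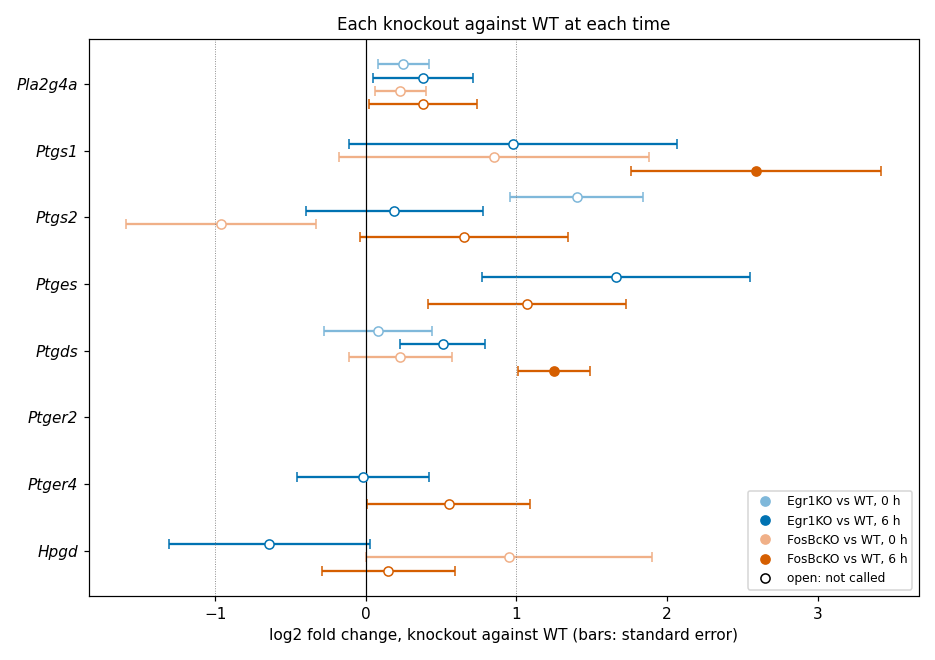
Fitted log2 difference of each knockout from WT (horizontal axis) at 0 h and at 6 h PCS for each tested gene of the pathway, with bars of 1 SE. Filled points passed an FDR of 0.05 with more than 2-fold difference: Ptgs1 and Ptgds in FosBcKO at 6 h.

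Whether the change with time itself differed between genotypes was tested over all 18 libraries. None of the 7 genes tested differed in either knockout by the quasi-likelihood F-test, where 0.00% of all 17469 genes did, although 1141 genes for Egr1KO and 1171 for FosBcKO had an unadjusted p under 0.05. For Ptgs2 the change in Egr1KO minus that in WT was -1.26 ± 1.10 on the log2 scale (SE, FDR = 0.85), and the change in FosBcKO minus that in WT was 1.52 ± 1.21 (FDR = 0.843). Without the filter on low counts both Ptgs2 values passed, with FDRs of 0.028 in Egr1KO and 0.0042 in FosBcKO. In that setting 264 and 404 of all 35202 genes passed.

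For Ptger4 the same differences in change were -2.01 ± 1.30 on the log2 scale (SE, FDR = 0.824) for Egr1KO and 0.42 ± 1.5 (FDR = 0.982) for FosBcKO. For Ptgds in FosBcKO the difference in change was 0.94 ± 0.37, with an unadjusted p of 0.0201 and an FDR of 0.652, and for Ptgs1 it was 1.66 ± 1.62 (FDR = 0.881). The higher level of these genes in FosBcKO at 6 h PCS is therefore not shown to be a different change with time.

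**Figure D5:**
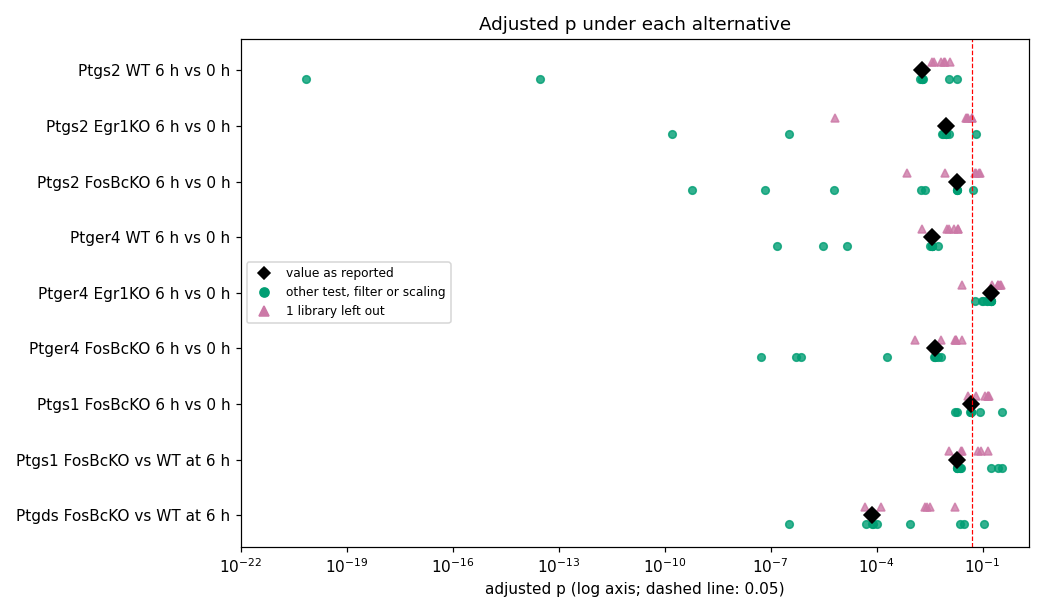
Adjusted p (horizontal log axis) of 9 results under every test, filter and scaling tried and with 1 library left out at a time. Black diamonds are the values as reported, circles other settings, triangles single libraries left out, and the dashed line marks 0.05. The Ptgs2 and Ptger4 points of WT and the Ptger4 points of FosBcKO all lie left of the line, while those of Ptgs1 lie on both sides.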

How the data were processed

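RNA from pooled LEC capsules (5 per library) was ribodepleted and made into stranded, paired-end libraries, which the authors aligned with HISAT2 and counted per gene with HTSeq. The deposited values are raw counts, without normalization, for 55416 Ensembl gene identifiers and 5 summary lines, which were left out of totals and tests. The versions of HISAT2 and HTSeq are not given in the sources used here. The labels name GRCm39 and the study's methods GRCm38, so no coordinates are printed.

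Groups follow the labels. CPM is a count divided by the library's gene total. Times were compared within a genotype with edgeR 4.0.16 (R 4.3.3), filterByExpr, TMM scaling and the robust quasi-likelihood F-test on 6 libraries. Knockout and WT libraries of one time were compared by edgeR's exact test (SE from the quasi-likelihood fit), and differences in change by the quasi-likelihood F-test on 18 libraries. FDRs are Benjamini-Hochberg values over all genes tested, and a call needed an FDR of at most 0.05 and more than 2-fold change. SE belongs to the log2 change. DESeq2 1.42.0, RLE scaling, other filters, the replicate number as a block and leaving out each library were alternatives. The tests were tried on simulated counts first.

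The members, lists and tests were chosen with earlier results of these data known. The genes named are the 8 members and no others. The reference table matched 0 of the identifiers, so related pathway genes, cell type markers and the targeted genes were not analysed here. Replicates are separate pools of capsules by the labels, and p-values measure the spread between these pools. Replicates differed by more than counting noise. Same-numbered WT libraries of both times deviated together (r = 0.102 to 0.247, 3 of 3 pairs over 0.1), a hint of pairing from the data alone. Between Egr1KO and WT at 6 h, which are different mice, the replicate 1 libraries also had r = 0.198. The reported tests did not pair libraries, and the replicate block was an alternative only. The 3 genotype comparisons with time use different libraries, while both knockouts share the WT libraries.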

Additional observations from a re-analysis of the deposited data

How the results depend on the processing

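Of 1018 alternative values for single genes, 957 kept their direction and side of the threshold, 21 lost a call, 4 gained one and 36 changed direction. No change of direction concerned a called value. With no filter on low counts the number of members called was 0 for Egr1KO over time, 1 for FosBcKO over time and 1 for each difference in change (Ptgs2), beside 1887 of 27206, 2459 of 31571, and 264 and 404 of 35202 genes in all. For FosBcKO against WT at 6 h PCS, 1 of the members passed by the quasi-likelihood F-test, 1 in the fit of all 18 libraries and 0 with the replicate block, beside 437 of 16155, 289 of 17469 and 86 of 16155 genes in all. The block there matches numbers of different mice, which are not pairs. Leaving out 1 library gave 0 to 2 members called for Egr1KO over time, 1 to 3 for FosBcKO over time and 1 to 2 for FosBcKO against WT at 6 h. The replicate block reversed Ptgs1 over time in WT (0.11), Ptger4 in Egr1KO against WT at 6 h (0.04) and the Ptges difference in change in Egr1KO (-0.54). It changed no call for WT over time.

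Leaving out 1 library changed the direction of these values, none of them called. Over time, Ptgs1 ranged from -0.79 to 1.91 in WT and Ptgds from -0.09 to 0.33 in Egr1KO. At 0 h, the Ptgds difference from WT ranged from -0.20 to 0.33 (Egr1KO) and from -0.05 to 0.48 (FosBcKO). At 6 h, Egr1KO against WT ranged from -0.19 to 0.71 for Ptgs2 and from -0.30 to 0.24 for Ptger4, and FosBcKO against WT from -0.39 to 1.16 for Ptgs2, -0.16 to 0.83 for Ptger4 and -0.05 to 0.24 for Hpgd. Differences in change for Egr1KO ranged from -0.96 to 1.94 for Ptgs1, -4.46 to 1.72 for Ptges, -0.17 to 0.28 for Pla2g4a, -2.54 to 1.61 for Ptger4 and -0.18 to 1.30 for Hpgd, and for FosBcKO from -0.45 to 2.24 for Ptgs1, -4.79 to 1.40 for Ptges, -0.22 to 0.30 for Pla2g4a and -0.28 to 0.83 for Ptger4. The cause was not tested. Depth limits Ptgs1, Ptges, Ptger2, Hpgd and the 0 h levels of Ptger4. Outside WT over time, 0 to 2 of 3 same-numbered pairs had a correlation over 0.1, and no reported test used the numbers as pairs. In FosBcKO all 3 libraries at 0 h correlated best with the 6 h library of their own number (r = 0.0776 to 0.181), a hint from the data, and the block there left 3 members called, with 2471 genes in all against 2027.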
